A study of Mus musculus with 36 samples.

Results

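Cathepsins are the proteases of the lysosome, legumain is a lysosomal protease that processes them, and cystatin C is a secreted inhibitor of the cysteine cathepsins. The 10 genes described here, Ctsa, Ctsb, Ctsc, Ctsd, Ctsh, Ctsl, Ctss, Ctsz, Lgmn and Cst3, were chosen by symbol from 36172 gene entries in the count table. All 10 were found, and all 10 passed the filter on low counts in every comparison below.

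RNA was measured in the hippocampus of Cx3cr1-NuTRAP mice. In this model, cre recombinase is expressed from Cx3cr1, which is active in microglia and other macrophages. After its induction the ribosomes of these cells carry a GFP tag, and an antibody to GFP pulls them down with their mRNA (translating ribosome affinity purification, TRAP). All animals of all groups carried this genotype, and the series asked how the age at induction bears on the efficiency and specificity of the model. Whole-tissue input came from 10 young animals of 6 months induced early (5 females, 5 males), 12 old animals of 22 months induced early (7 females, 5 males) and 7 old animals of 22 months induced late (5 females, 2 males). The 7 TRAP libraries came from the same 7 late-induced animals, so that the pulldown was measured here at 1 age and with 1 induction regime. The pulldown can hold RNA of every cell with cre activity, including border macrophages, and RNA carried along from other cells.

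Cathepsins are made as inactive precursors, marked with mannose 6-phosphate, carried to the lysosome by its receptors and activated there at low pH. In microglia, the resident macrophages of the brain, they degrade what the cell has taken up, trim invariant chain and peptides for MHC class II, and cleave endosomal Toll-like receptors into their active form. Cystatin C is made by astrocytes and the choroid plexus as well as by microglia, and cathepsins B, D and L are made by most brain cells.

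In the deposited coordinates (mm10 per the submitters' processing notes), Ctsa lay on chromosome 2 at 164832872 to 164841032, Ctsz on chromosome 2 at 174427494 to 174438992 and Cst3 on chromosome 2 at 148871732 to 148875468. Ctss lay on chromosome 3 at 95526786 to 95556403, Ctsc on chromosome 7 at 88278093 to 88310875 and Ctsd on chromosome 7 at 142375916 to 142387870. Ctsh lay on chromosome 9 at 90054267 to 90076095, Lgmn on chromosome 12 at 102394098 to 102439697, Ctsl on chromosome 13 at 64363214 to 64370306 and Ctsb on chromosome 14 at 63122462 to 63145923.

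RefSeq promoter windows on GRCm38.p6, which cover 250 bases before and 50 bases after a transcription start, were matched for 8 of the 10 genes, in 10 windows. They are shown because lysosomal genes are known for the E-box CACGTG, the core of the site bound by TFEB and its relatives, and macrophage genes for GAGGAA, the core of the site of PU.1. The search covered both strands. CACGTG was found in 4 of the 10 windows (1 each of Ctsa, Ctsd, Ctsl and Lgmn), against 7.15% of all 32851 windows. The 8-letter form TCACGTGA contains CACGTG and was added after the promoters were seen. It was found in 2 of the 10 windows (Ctsa and Ctsd), against 0.974% of all windows. The longer CLEAR motif was found in none of the 10 windows and in 0.326% of all windows. GAGGAA was found in 3 of the 10 windows (Cst3, Ctsc and Ctss), close to its share of 28.3% of all windows. The first set below gives 30 bases around each E-box upstream of the start, on the strand of the gene, with the E-box in capitals. The Ctsd sites begin 245 and 98 bases before the start (chr7:142388048-142388077 and chr7:142387908-142387937, minus strand), and lie in the 1 window of that gene. Ctsa and Lgmn have 2 windows each, and in both genes only the window of the start that lies further inside the gene holds an E-box. The Ctsa site begins 12 bases before that inner start (chr2:164833743-164833772, plus strand), and so lies within the gene range given above. The Lgmn site begins 49 bases before its inner start (chr12:102439124-102439153, minus strand), again within the gene range. The Ctsl site begins 236 bases before the start (chr13:64370739-64370768, minus strand). This site and the proximal Ctsd site lie outside the gene ranges given above. Both lie inside the gene ranges of GENCODE vM21, which end at 64370890 for Ctsl and 142388038 for Ctsd.
Ctsd, distal E-box: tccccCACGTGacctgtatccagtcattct
Ctsd, proximal E-box: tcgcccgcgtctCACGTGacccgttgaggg
Ctsa, E-box: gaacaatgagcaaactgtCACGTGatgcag
Ctsl, E-box: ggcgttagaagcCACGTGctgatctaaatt
Lgmn, E-box: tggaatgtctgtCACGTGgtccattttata

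The second set gives the 250 bases before the starts of Ctss, the gene of the group that was highest in TRAP relative to input, and Ctsc, the gene with the largest SD relative to its mean in each of the 3 input groups, with GAGGAA or its reverse complement TTCCTC in capitals. The Ctss window lies at chr3:95526536-95526785 and the Ctsc window at chr7:88277835-88278084, both on the plus strand. A match of letters is a description of the sequence and does not show that a factor binds there.
Ctss: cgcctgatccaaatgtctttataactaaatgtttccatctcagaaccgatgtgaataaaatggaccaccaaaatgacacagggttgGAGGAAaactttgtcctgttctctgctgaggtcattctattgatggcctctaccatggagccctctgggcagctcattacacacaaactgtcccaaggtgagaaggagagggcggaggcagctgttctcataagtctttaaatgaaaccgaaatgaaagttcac
Ctsc: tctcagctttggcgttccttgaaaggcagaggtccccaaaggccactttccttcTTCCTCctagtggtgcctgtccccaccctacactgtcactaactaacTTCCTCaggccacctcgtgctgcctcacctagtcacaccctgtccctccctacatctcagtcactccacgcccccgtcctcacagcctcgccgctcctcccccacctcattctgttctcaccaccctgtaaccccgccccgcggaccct

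The 36 libraries held between 12.9 and 20.4 M estimated counts each, and levels are given as CPM, counts per M of the effective library size. The inputs fell into 2 clear classes by choroid plexus RNA. The summed level of 6 choroid plexus genes was 47.7 to 190.3 CPM in 14 inputs and 1700 to 4130 CPM in the other 15, with 6 of 10 young, 4 of 12 old early-induced and 5 of 7 old late-induced animals in the high class. Old early-induced replicate 5 was highest for choroid plexus genes and for blood genes (1409 CPM over 3 genes, group median 161.7). The summed level of 12 thalamus and striatum genes was highest in old early-induced replicate 2 (488.4 CPM, group median 261.8), and next in young replicate 6 (379.9 CPM, group median 259.1). Results that rest on these libraries are given with and without them. The sample numbers in the titles run in separate blocks for the 3 input groups, so group and any processing order behind those numbers cannot be told apart.

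The 10 genes together held 0.2275 ± 0.0123% of the counts in young input (SD, n = 10), 0.274 ± 0.0236% in old early-induced input (SD, n = 12), 0.305 ± 0.0243% in old late-induced input (SD, n = 7) and 1.83 ± 0.411% in TRAP (SD, n = 7). By count, Ctsd was the first or second gene of the whole transcriptome in every TRAP library (rank 1 to 2) and Cst3 ranked 1 to 3, while Ctss ranked 5 to 18 and Ctsb 9 to 46. In young input the same genes ranked 265 to 479 (Ctsd), 75 to 93 (Cst3), 2985 to 4166 (Ctss) and 227 to 287 (Ctsb).

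Genes were ordered by CPM per kilobase of transcript, with the length of the principal RefSeq-matched transcript in GENCODE vM21. The transcript set behind the deposited counts is not given in the sources used here, so a level per length is approximate. In young input Cst3 led with 1076 ± 59.7 CPM per kilobase, followed by Ctsd (192.8 ± 23.98) and Ctsb (103.8 ± 4.31) (SD, n = 10 each). Ctss (52.2 ± 6.29), Lgmn (47.04 ± 2.04) and Ctsl (43.8 ± 3.99) came next in CPM per kilobase, and each overlapped its neighbour within the SD. Ctsz (28.96 ± 3.84) and Ctsa (27.2 ± 1.94) also overlapped, and Ctsh (5.66 ± 0.800) and Ctsc (3.50 ± 0.609) were lowest in CPM per kilobase and did not overlap.

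In TRAP, Cst3 was again first with 6273 ± 787 CPM per kilobase (SD, n = 7), followed by Ctsd (3016 ± 1049) and Ctss (1903 ± 505.7), which overlapped within the SD. Ctsz (629 ± 240.6), Lgmn (527 ± 106), Ctsb (417 ± 129.8), Ctsl (234 ± 69.2), Ctsh (158 ± 53.9) and Ctsa (146 ± 40.9) followed in CPM per kilobase. Each of these 6 overlapped its neighbour within the SD, so that their order is uncertain. Ctsc (48.8 ± 14.8) was lowest in CPM per kilobase. The mean of Ctss was below that of Ctsb in young input and above it in TRAP, outside the SD in both.

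**Figure D1:**
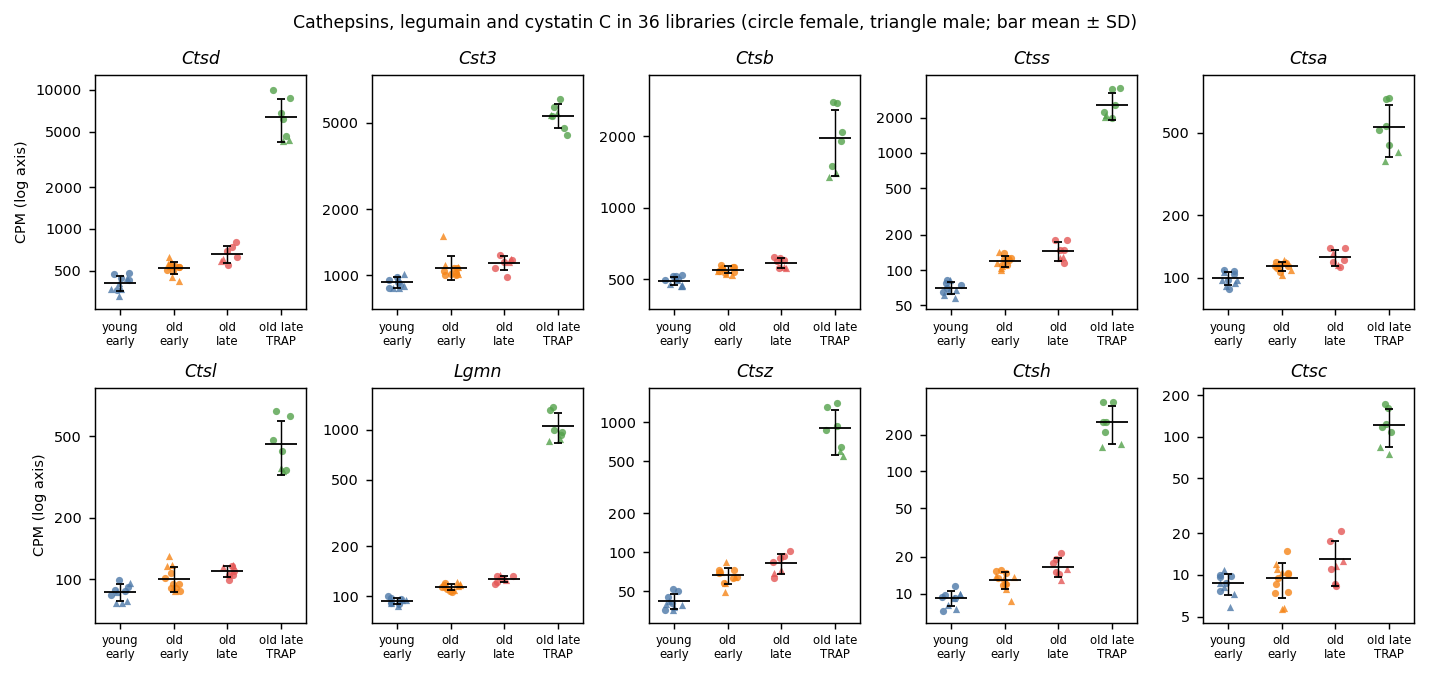
CPM (log axis, a separate range for each gene) of the 10 genes in the 36 libraries, by group; circles are females, triangles are males, and bars are the mean ± SD. In every panel all 7 TRAP libraries lie above all inputs, and the 3 input groups lie close together on this scale.

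The pulldown was compared with the input of the same late-induced animals, which asks how far each gene belongs to the RNA of the tagged cells. All 10 genes were higher in TRAP by edgeR's quasi-likelihood test (adjusted p under 0.05), where 30.1% of the 15026 genes tested were called higher and 10.5% were called higher with a log2 fold change of at least 1. In all 10, the lowest TRAP library lay above the highest input of these animals, as for 19.8% of all genes. The median log2 fold change was 3.095 over the 10 genes and -0.02 over all genes tested. The 24 genes of the microglia list were all higher, with a median of 4.28, as were the 8 border macrophage genes (median 3.83), whose summed level was 394.7 to 666.8 CPM in TRAP against 16250 to 25990 CPM for the microglia list. All 8 endothelial genes were called higher too, with a median of 1.15 and a range of 0.37 to 1.70, which reaches the value of Ctsb below. Of the other cell types listed, 10 of 10 oligodendrocyte genes (median -1.33), 8 of 10 astrocyte genes (median -0.43) and 6 of 10 neuron genes (median -0.21) were lower, where 28.3% of all genes were called lower. Lower too were 5 of 6 choroid plexus genes (median -2.05) and 3 of 3 blood genes (median -2.30). The same held for 6 of 6 oligodendrocyte precursor genes (median -1.38) and 4 of 6 tested mural cell genes (median -0.58). Cx3cr1, whose promoter drives cre, had a log2 fold change of 4.10, and Csf1r one of 4.32. In bulk RNA, more cells of a type and more RNA per cell cannot be told apart.

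Of the 3 endopeptidases among the cysteine cathepsins, Ctss rose most of the 10 genes and Ctsl and Ctsb rose least. Ctss, an endopeptidase that trims invariant chain and stays active at neutral pH, measured 114.4, 146.9 and 181.9 CPM (lowest, median and highest) in the late-induced inputs and 1999, 2252 and 3585 CPM in TRAP. Its log2 fold change was 4.11 ± 0.14 (SE, edgeR adjusted p 2.063e-13), the highest of the 10. Ctsl, an endopeptidase of most cell types, measured 98.5, 109.7 and 117.4 CPM in input and 336.7, 421.6 and 663.6 CPM in TRAP. Its log2 fold change was 2.04 ± 0.14 (SE, edgeR adjusted p 1.957e-09), so that Ctsl rose less than the microglial genes but every TRAP library was above every input. Ctsb, which cuts both within chains and at their carboxyl end, measured 555.7, 597.0 and 619.6 CPM in input and 1352, 1905 and 2806 CPM in TRAP. Its log2 fold change was 1.71 ± 0.13 (SE, edgeR adjusted p 6.218e-09), the lowest of the 10.

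Ctsh, an aminopeptidase, measured 12.89, 15.85 and 21.5 CPM in input and 158.8, 253.3 and 372.0 CPM in TRAP. On the log2 scale it was 3.88 ± 0.15 higher (SE, edgeR adjusted p 8.973e-13), second to Ctss. Ctsz, a carboxypeptidase also called cathepsin X, measured 63.5, 84.2 and 102.2 CPM in input and 550.0, 874.3 and 1418 CPM in TRAP, a log2 fold change of 3.41 ± 0.17 (SE). Ctsc, the dipeptidyl peptidase that activates serine proteases of immune cells, measured 8.36, 11.7 and 20.7 CPM in input and 75.8, 119.0 and 174.5 CPM in TRAP, a log2 fold change of 3.18 ± 0.20 (SE). The TRAP libraries of these 3 genes spread widely between lowest and highest without reaching the inputs.

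Among the other proteases, Ctsd, the main aspartic protease of the lysosome, measured 550.9, 624.8 and 806.3 CPM in input and 4291, 6123 and 9922 CPM in TRAP. Its log2 fold change was 3.23 ± 0.16 (SE, edgeR adjusted p 1.477e-11). Lgmn, the asparaginyl endopeptidase, measured 118.2, 128.9 and 133.7 CPM in input and 860.3, 970.9 and 1376 CPM in TRAP, a log2 fold change of 3.01 ± 0.10 (SE). Ctsa, the carboxypeptidase that protects neuraminidase and beta-galactosidase in a complex, measured 112.0, 121.7 and 139.6 CPM in input and 366.8, 519.2 and 736.6 CPM in TRAP, a log2 fold change of 2.05 ± 0.13 (SE). The inhibitor gene Cst3 measured 977.3, 1152 and 1235 CPM in input and 4387, 5433 and 6409 CPM in TRAP. It was 2.23 ± 0.08 higher on the log2 scale (SE, edgeR adjusted p 2.063e-13). The values of Ctsa and Cst3 were close to that of Ctsl.

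Within animals the ratio of TRAP to input was positive in 7 of 7 for each of the 10 genes. The mean log2 ratio was 4.11 ± 0.13 for Ctss (SD, n = 7), 0.07 below that of the microglia list (4.18 ± 0.155), and Ctss was below the list in 6 of the 7 animals. The other 9 genes were below the list in all 7 animals, by 0.31 ± 0.22 for Ctsh and by 2.49 ± 0.31 for Ctsb on the log2 scale. Cst3 had the most even ratio (2.24 ± 0.08), and Ctsc the least even (3.23 ± 0.65, range 2.58 to 4.33). The 2 animals with little choroid plexus RNA had the highest Ctsc ratios (4.33 and 3.81). Their inputs had 8.36 and 8.54 CPM of Ctsc against 11.1 to 20.7 CPM in the 5 animals of the high class. The part of choroid plexus RNA in this spread was not tested.

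**Figure D2:**
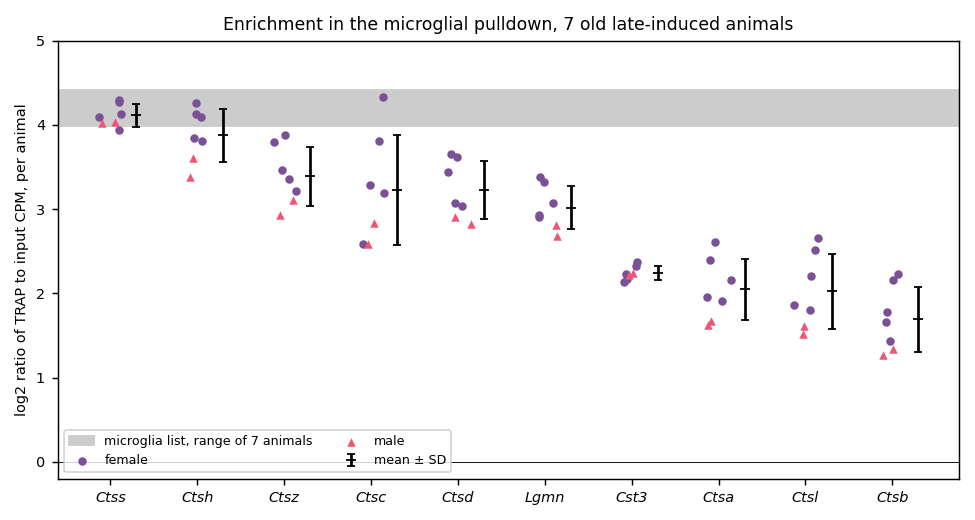
Log2 ratio of TRAP to input CPM in each of the 7 late-induced animals (circles females, triangles males), with the mean ± SD beside each gene and a grey band for the range of the microglia list mean, 3.99 to 4.42. Ctss lies in or just under the band, and Ctsb, Ctsl, Ctsa and Cst3 lie far under it.

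The age comparisons ask whether the genes differ between young and old hippocampus as a whole. In old early-induced input 9 of the 10 genes were higher than in young input by edgeR's quasi-likelihood test (adjusted p under 0.05), all but Ctsc, where 13.1% of 15106 genes were called higher. In old late-induced input all 10 were higher, where 17.6% were called higher. The median log2 fold change of the 10 genes was 0.26 in the first and 0.50 in the second, against 0.01 and 0.02 over all genes tested. Both comparisons use the same young libraries, so the second is not independent of the first. In the second, the old animals were induced late and the young ones early, so age and induction regime cannot be told apart there. Microglial RNA differed in the same direction. In the old early-induced animals 22 of 24 microglia genes were higher (median 0.45), and in the old late-induced animals 23 of 24 were (median 0.63). The summed level of the list was 629.0 to 727.3 CPM in young input, 830.6 to 991.3 CPM in the early-induced old group and 881.2 to 1283 CPM in the late-induced old group. Other cell types differed as well. Of 10 oligodendrocyte genes 9 were higher in early-induced (median 0.34) and 10 in late-induced animals (median 0.50), and of 10 astrocyte genes 4 and 5 were (medians 0.07 and 0.12). Of 3 blood genes 1 and 3 were higher (medians 0.92 and 1.43), and of 8 border macrophage genes 0 and 1, with 1 lower in late-induced animals. Of 6 oligodendrocyte precursor genes 1 was higher and 3 were lower in each comparison. Of 10 neuron genes 1 was higher in early-induced animals, and 3 were lower in late-induced ones. Of all genes, 12.4% (early-induced) and 16.8% (late-induced) were called lower. The part of these cell types in the age differences was not tested. Of the references, Cx3cr1 had log2 fold changes of 0.47 and 0.69, and Csf1r of 0.17 and 0.37, all called.

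Of the 10 genes, Ctss differed most from young input in both old groups. It measured 57.9, 69.3 and 82.9 CPM (lowest, median and highest) in young, 99.3, 118.2 and 141.8 CPM in the early-induced old group and 114.4, 146.9 and 181.9 CPM in the late-induced old group. No old library overlapped the young ones, as for 0.953% of all genes in the early-induced and 2.8% in the late-induced comparison. The log2 fold changes were 0.74 ± 0.07 (SE, edgeR adjusted p 1.245e-08) and 1.02 ± 0.08 (SE, edgeR adjusted p 2.788e-10), or 1.67-fold and 2.03-fold. Ctsz measured 35.8, 40.09 and 51.9 CPM in young input, 48.9, 66.6 and 84.4 CPM in the early-induced old group and 63.5, 84.2 and 102.2 CPM in the late-induced old group. Its log2 fold changes were 0.66 ± 0.08 and 0.94 ± 0.09 (SE), and its late-induced libraries did not overlap the young ones. Ctsh measured 7.24, 9.31 and 11.6 CPM in young input, 8.63, 13.4 and 15.7 CPM in the early-induced old group and 12.89, 15.85 and 21.5 CPM in the late-induced old group. Its log2 fold changes were 0.48 ± 0.09 and 0.82 ± 0.11 (SE), and it too was free of overlap only in the late-induced comparison.

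Ctsd measured 329.8, 417.9 and 481.4 CPM in young input, 420.8, 534.3 and 623.5 CPM in the early-induced old group and 550.9, 624.8 and 806.3 CPM in the late-induced old group, log2 fold changes of 0.35 ± 0.07 and 0.66 ± 0.08 (SE). Lgmn measured 86.9, 94.5 and 100.0 CPM in young input, 106.2, 114.3 and 121.8 CPM in the early-induced old group and 118.2, 128.9 and 133.7 CPM in the late-induced old group. Its rise was modest, with log2 fold changes of 0.29 ± 0.03 (SE, edgeR adjusted p 8.653e-08) and 0.45 ± 0.04 (SE, edgeR adjusted p 2.494e-10). The groups were tight, and neither old group overlapped the young one. Ctsb measured 466.7, 495.1 and 520.6 CPM in young input, 522.3, 549.3 and 574.6 CPM in the early-induced old group and 555.7, 597.0 and 619.6 CPM in the late-induced old group. Its log2 fold changes of 0.15 ± 0.02 and 0.24 ± 0.03 (SE) were the smallest called in each comparison, again without overlap. Ctss, Lgmn and Ctsb were thus free of overlap in both comparisons, and Ctsa, Ctsd, Ctsh and Ctsz in the late-induced one.

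Ctsa measured 87.8, 97.4 and 108.2 CPM in young input, 102.6, 113.6 and 121.7 CPM in the early-induced old group and 112.0, 121.7 and 139.6 CPM in the late-induced old group, log2 fold changes of 0.20 ± 0.04 and 0.33 ± 0.05 (SE). Ctsl measured 76.6, 87.03 and 99.5 CPM in young input, 87.5, 94.6 and 129.5 CPM in the early-induced old group and 98.5, 109.7 and 117.4 CPM in the late-induced old group, log2 fold changes of 0.22 ± 0.06 and 0.35 ± 0.07 (SE). Ctsl overlapped between young and old in both comparisons. Cst3 measured 870.3, 916.2 and 1015 CPM in young input, 1003, 1038 and 1506 CPM in the early-induced old group and 977.3, 1152 and 1235 CPM in the late-induced old group. Its log2 fold changes were 0.23 ± 0.05 and 0.31 ± 0.06 (SE), and the 1506 CPM came from early-induced replicate 5. Without that library the first was 0.18 (edgeR adjusted p 0.00035, 22.1% of all genes called). Ctsc measured 5.88, 8.75 and 10.9 CPM in young input, 5.66, 9.89 and 14.9 CPM in the early-induced old group and 8.36, 11.7 and 20.7 CPM in the late-induced old group. Its log2 fold change in early-induced animals was 0.11 ± 0.16 (SE, edgeR adjusted p 0.656), and that in late-induced animals 0.54 ± 0.18 (SE, edgeR adjusted p 0.019).

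**Figure D3:**
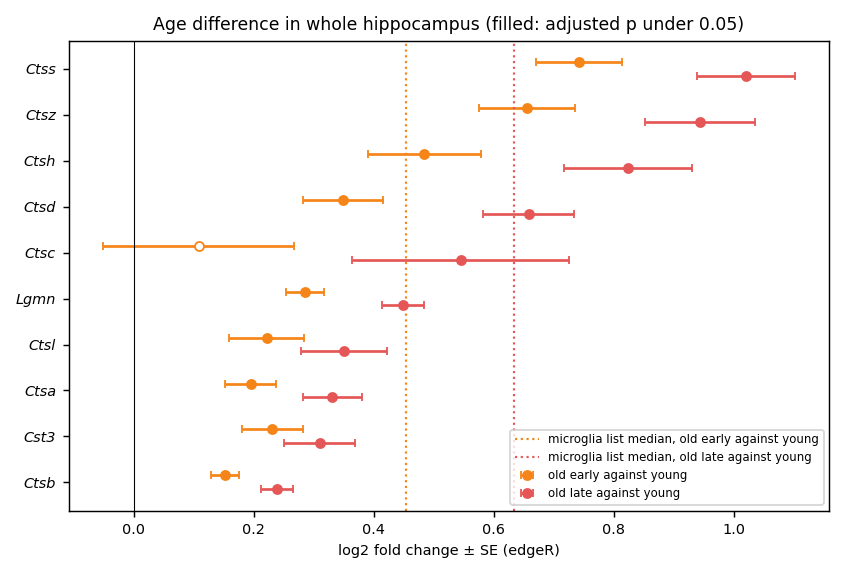
Log2 fold change ± SE of each gene in old early-induced (orange) and old late-induced (red) against young input; filled points have an edgeR adjusted p under 0.05, and dotted lines mark the medians of the microglia list, 0.45 and 0.63. Ctss, Ctsz and Ctsh lie to the right of the line of their comparison, Ctsd lies right of it only in the late-induced one, and the other 6 lie left of it in both.

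Some of these calls rested on part of the animals. Ctsc lost its call in late-induced animals without replicate 5 or without replicate 6 of that group and with females only (0.53, edgeR adjusted p 0.11, 18.8% of all genes called). In early-induced animals the calls of Ctsa (0.17, edgeR adjusted p 0.075) and Ctsl (0.07, edgeR adjusted p 0.45) were lost with females only, where 8.06% of all genes were called. Among young females only replicate 9 was of the low choroid class, and among old early-induced females only replicate 8 was of the high class. With both sexes, mean Ctsl in young and old early-induced input was 78.7 and 92.2 CPM in the low class, and 91.5 and 117.3 CPM in the high class. The part of choroid class in the lost calls was not tested. With the mean of the microglia list as a covariate no gene of the 10 was called in either age comparison, and neither was nearly any other gene, with 0.104% and 0.00651% of all genes called in either direction. This score differed between the groups, so age and microglial RNA cannot be told apart with it.

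Choroid plexus RNA moved with several of the genes among the inputs of a group. In young input all libraries of the high class lay above all of the low class for Ctsc, Ctsd, Ctsl and Ctsz, as for 3.15% of all genes. The same was true of Ctsc and Ctsl in old early-induced input (4.37% of all genes) and of Ctsc in old late-induced input (6.32%). Ctsl measured 92.2 ± 4.69 CPM in the 8 old early-induced inputs of the low class and 117.3 ± 9.43 CPM in the 4 of the high class (SD). Ctsd measured 357.2 ± 18.5 CPM in the 4 young inputs of the low class and 445.3 ± 27.5 CPM in the 6 of the high class (SD). For Ctss the same young classes gave 70.3 ± 9.17 and 70.9 ± 8.96 CPM (SD), so its level did not separate them. The classes were set after the data were seen.

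**Figure D4:**
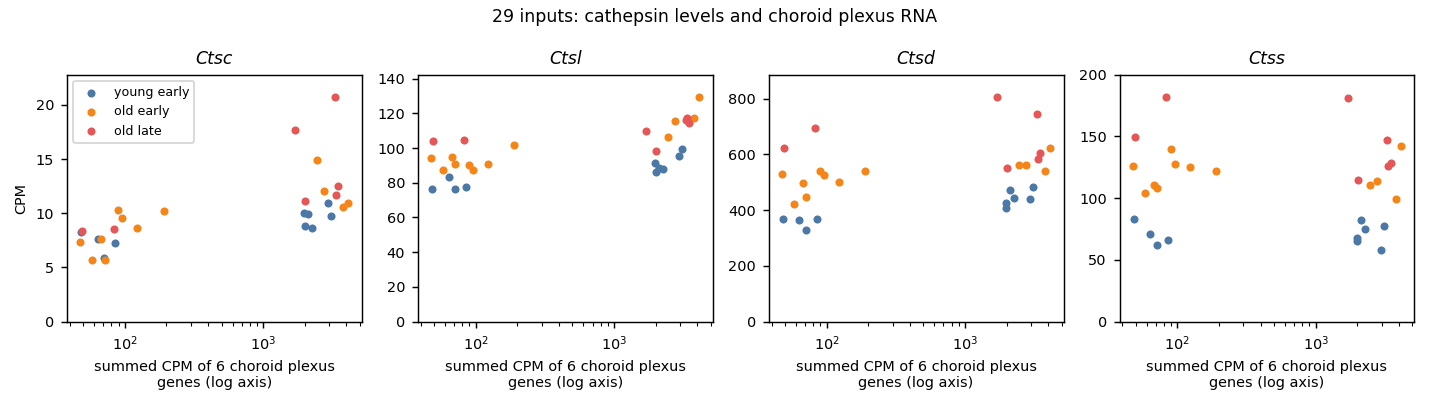
CPM of Ctsc, Ctsl, Ctsd and Ctss against the summed CPM of 6 choroid plexus genes (log axis) in the 29 inputs, coloured by group. Inputs split into a low class under 200 CPM and a high class over 1000 CPM; within a colour, Ctsc and Ctsl are mostly higher on the right, and Ctss is not.

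The age differences were also computed with the choroid class as a covariate and within each class. With the covariate, where 31.4% and 35.4% of all genes were called, the same 9 and 10 genes were called, and Ctsc in early-induced animals had a log2 fold change of 0.25 (edgeR adjusted p 0.08). Within the low class (4 young, 8 old early-induced, 2 old late-induced) 8.15% and 12.4% of all genes were called. Ctss had log2 fold changes of 0.69 and 1.105 there, Ctsz of 0.65 and 1.06, and Ctsd of 0.38 and 0.73, all called. Ctsh lost its call in the early-induced animals of that class (0.46, edgeR adjusted p 0.072). Ctsc stood at -0.09 and -0.13 there and was not called, whereas within the high class (6, 4 and 5 animals) it stood at 0.41 (edgeR adjusted p 0.082) and 0.61 (edgeR adjusted p 0.0059). The other 9 genes were called in both comparisons within the high class, where 13.5% and 17.3% of all genes were called.

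Old late-induced and old early-induced inputs were compared to ask whether the induction age goes with a difference. All 10 log2 fold changes were above 0, from 0.08 for Cst3 to 0.44 for Ctsc, but none was called by edgeR, where 4 of 15106 genes (0.0265%) were called and 1731 had an unadjusted p under 0.05. The smallest adjusted p values were those of Lgmn (0.16, edgeR adjusted p 0.057) and Ctsd (0.31, edgeR adjusted p 0.093). DESeq2 called both (0.364% of all genes), limma voom called Lgmn (0.0728%), and edgeR with females only called both (1.22%). Among these females only early-induced replicate 8 and late-induced replicates 5, 6 and 7 were of the high choroid class. With only the groups compared in the fit, edgeR called 0 of 15033 genes. With the choroid class as covariate it called 9 of 15106. Without early-induced replicate 5, the library richest in choroid plexus and blood RNA, edgeR called Ctsd (0.34), Ctss (0.31), Ctsz (0.33) and Lgmn (0.17), where 1.07% of all genes were called. Without replicate 2 of that group it called Ctsd and Lgmn (0.65% of all genes), and without replicate 10 Lgmn (0.146%). Within the low choroid class it called Ctsd (0.35), Ctss (0.42) and Ctsz (0.42), where 0.667% of all genes were called. Within the high class 0.0% of all genes were called, and Cst3 (-0.05) and Ctsl (-0.05) changed sign. The 24 microglia genes had a median of 0.21 in this comparison, the 6 choroid plexus genes of 1.01 and the 3 blood genes of 0.55, and none was called.

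In the 29 inputs none of the 10 genes was called between males and females by edgeR, where 0.172% of 15106 genes were called, and the log2 fold changes lay between -0.16 (Ctsh) and 0.08 (Cst3). None was called for an interaction of age and sex in the 22 early-induced inputs, where edgeR called 0 of 14953 genes (0.0%; 2301 had an unadjusted p under 0.05) and DESeq2 13 (0.0869%), none of them among the 10. The largest of the 10 interactions was that of Ctsl, at 0.31 ± 0.12 (SE, edgeR adjusted p 0.251). The 6 choroid plexus genes had a median interaction of 2.89, all 6 above 0 and none called. The part of choroid plexus RNA in the Ctsl value was not tested.

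In TRAP, 9 of the 10 genes had a lower mean in the 2 males than in the 5 females. Ctsb measured 1352 and 1408 CPM in the males and 1500 to 2806 CPM in the females. Ctsh measured 158.8 and 166.4 CPM in the males and 212.3 to 372.0 CPM in the females, and Ctsc 75.8 and 84.7 CPM against 109.5 to 174.5 CPM. Ctsa, Ctsd, Ctsz and Lgmn were likewise free of overlap, which makes 7 of the 10, against 13.1% of 14763 genes that were lower in males without overlap. Ctss and Ctsl overlapped, and Cst3 was level (5433 and 5529 CPM against 4387 to 6409 CPM). None of the 10 was called by edgeR in this comparison, where 9 genes (0.061%) were called, and DESeq2 called Ctsc, Ctsh and Ctsz, where it called 2.39% of all genes. An interaction of sex and fraction with the animal as block called none of the 10 (3 of 15387 genes, 0.0195%). It called 6 of the 10 with no filter on low counts (0.827% of all genes), and Ctsb, Ctsh and Ctsl without late-induced animal 7 (0.62%). These comparisons were added after the values were seen and have 2 males. The microglia list summed to 16250 and 16570 CPM in the male and 17250 to 25990 CPM in the female TRAP libraries. Both males were of the high choroid class, with 1197 and 1246 CPM of the 6 choroid genes in TRAP against 25.4 to 664.8 CPM in the females. Border macrophage genes summed to 394.7 to 449.7 CPM in the males and 480.8 to 666.8 CPM in the females, and astrocyte genes to 3298 to 3362 CPM and 3932 to 4815 CPM. Endothelial genes (263.3 to 305.8 CPM against 183.6 to 250.3 CPM), mural cell genes (90.6 to 124.5 CPM against 64.5 to 80.98 CPM) and neuron genes (11050 to 11370 CPM against 9240 to 10840 CPM) were higher in the males without overlap. The median log2 difference of males from females was -0.57 for border macrophage genes, -0.31 for microglia genes and -0.61 for the 10 genes. The part of these cell types in the sex difference was not tested.

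Of 9 other cathepsins, 4 passed the filter in the TRAP comparison and 3 among the inputs. Ctse, an aspartic cathepsin of endosomes, had 0 to 8 counts in each late-induced input, under the minimum count of 10, and measured 1.204, 4.68 and 10.3 CPM in TRAP. It passed the filter through the TRAP libraries alone, so no fold or call is read from it. Ctsf (1.11) and Ctso (0.69) were higher in TRAP. Ctsk, the collagen-degrading cathepsin of osteoclasts, was lower (-0.85), and lost this call without animal 3 or animal 6. With age Ctso alone of the 3 tested was called, at 0.22 in early-induced and 0.29 in late-induced animals. Ctsf, at 60.7 ± 3.48 CPM in young input and 60.8 ± 4.01 CPM in the late-induced old group (SD), had a log2 fold change of 0.01 (edgeR adjusted p 0.937), and that of Ctsk was -0.10 (edgeR adjusted p 0.773).

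Of 15 other genes of inhibitors, 10 passed the filter. Cst7, which encodes cystatin F, an inhibitor of Ctsc that acts inside immune cells, had 18.3 counts in all 10 young inputs together, with 5 libraries at 0. It measured 0.593, 1.74 and 3.16 CPM in old early-induced input, 0.496, 3.16 and 8.45 CPM in the late-induced old group and between 26 and 245.4 CPM in TRAP (median 92.98). The highest young input had 0.350 CPM. No young library reached the minimum count of 10, so Cst7 passed the filter through the old libraries. Its log2 fold changes of 3.71 and 4.72 with age depend on the prior count and its calls are no support for a difference, and that of TRAP against input was 4.80. Cstb, the cytosolic cystatin B, was higher in TRAP (1.08) and with age (0.23 and 0.28). It lost the early-induced age call without early-induced replicate 5 (0.17) or without young replicate 3 (0.20), and both age calls with females only and within either choroid class.

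Of the 4 serpins tested, 3 were lower in TRAP and higher with age. Serpinb1a (-1.51), Serpina3n (-0.46) and Serpinb6a (-0.23) differed from input in TRAP by these log2 values, and from young in old input by 0.76 and 1.01, 0.52 and 0.68, and 0.21 and 0.25. The TRAP call of Serpina3n was lost without any 1 of several libraries. Serpinb6a lost its early-induced age call with limma voom, with females only and without any 1 of many libraries, and its late-induced one without late-induced replicate 2 or 4. Serpinb9 was higher in TRAP (0.65) and in early-induced animals (0.29, edgeR adjusted p 0.0496), a call that most other settings did not keep, and not in late-induced ones (0.07). Of the testicans, secreted proteoglycans with some inhibitory action on cathepsins, Spock2 (-0.19) and Spock3 (-0.46) were lower in TRAP and Spock1 was higher (0.23). Spock1 lost its call with upper quartile scaling (0.08), with library size alone (0.13) and without animal 6. None of the 3 was called with age. Cst6 was called only in late-induced against young animals (0.68) and had -0.51 in TRAP (edgeR adjusted p 0.0701). In total 4 of the 10 tested inhibitor genes were higher and 5 lower in TRAP, where 30.1% of all genes were called higher and 28.3% lower. In each age comparison 6 were higher and none lower. Cst7 is among these 6, and its age calls are no support for a difference. Of all genes, 13.1% (early-induced) and 17.6% (late-induced) were called higher, and 12.4% and 16.8% lower. The shares of all genes called apply to the lists below too. Serpins of clade A come in near-identical copies, so that fractional counts may have been split between them.

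**Figure D5:**
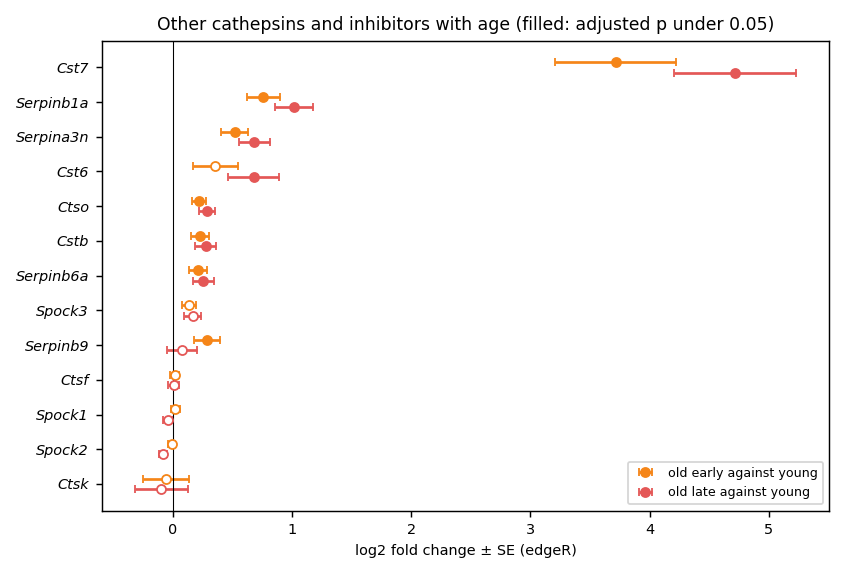
Log2 fold change ± SE of the tested other cathepsins and inhibitors in old early-induced (orange) and old late-induced (red) against young input; filled points have an edgeR adjusted p under 0.05. Cst7 stands far to the right at 3.71 and 4.72, but it passed the filter through the old libraries and its calls are no support for a difference. The cathepsins other than Ctso were not called and lie near 0, the lowest at -0.06 and -0.10.

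Of 11 tested partners and substrates of the cathepsins, 10 were higher in TRAP and 1 lower. The 3 largest were Tlr9 (3.95) and Tlr7 (3.88), the endosomal receptors that cathepsins and legumain cleave, and H2-DMb1 (3.71), which loads peptides on MHC class II. In old early-induced animals 3 of the 11 were higher, H2-DMb1 (0.72), Grn (0.22), the progranulin gene, and Neu1 (0.12), the neuraminidase that Ctsa protects. In old late-induced animals 8 were higher, led by Cd74 (2.09), which encodes the invariant chain cut by Ctss, H2-Aa (1.63) and H2-Ab1 (1.50). Cd74 measured 5.37 CPM in young input, 10.3 CPM in the early-induced old group and 22.2 CPM in the late-induced old group as group means, and its early-induced value (0.91) missed the threshold with an edgeR adjusted p of 0.0837. H2-DMb1 has a near-identical copy, so its level is uncertain.

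Of the 11 genes that sort enzymes to the lysosome, 6 were higher and 1 lower in TRAP, among them Nagpa (2.20), the enzyme that uncovers the mannose 6-phosphate mark, and Cln3 (1.19). With age 2 were higher and 2 lower in early-induced animals, close to the shares over all genes, of which Sorl1 (-0.29), Igf2r (-0.26) and M6pr (0.16) had the largest differences. In late-induced animals 3 were higher and 3 lower, led by Sorl1 (-0.43), Cln8 (0.23) and Gnptab (-0.19), which encodes a part of the enzyme that makes the mark. The list had a median of 0.06 and 0.05 in the 2 age comparisons, against 0.26 and 0.50 for the 10 genes. Of 5 tested other lysosomal peptidases, 4 were higher in TRAP, led by Prcp (2.35) and Scpep1 (1.80). The fifth, Napsa, was near the floor in both fractions (mean 0.585 CPM in input, 0.117 CPM in TRAP) and passed the filter through the inputs, so no fold is read from it. Prcp (0.46 and 0.64) and Scpep1 (0.33 and 0.43) were the 2 called with age. Of 4 tested transcription factors of lysosomal genes, Tfe3 (1.36), Tfeb (1.12) and Mitf (0.73) were higher in TRAP, and with age only Tfeb was called, at 0.39 and 0.56.

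Among the 29 inputs, after group means and sex were removed, the 10 genes did not vary as 1 block. Pearson's r of log2 CPM was 0.88 between Ctsd and Ctsz, 0.79 between Ctsd and Ctsl, 0.71 between Ctss and Cst3, 0.08 between Ctss and Ctsl, 0.07 between Ctss and Ctsc and -0.02 between Ctsb and Ctsc. With the mean of the microglia list, r was 0.81 for Ctss, 0.67 for Cst3 and 0.66 for Ctsz, but 0.34 for Ctsc and 0.26 for Ctsl. The genes most like each of them out of 15106 also differed. For Ctss they were C1qb (0.86) and C1qc (0.85), which encode parts of complement C1q, and Laptm5 (0.82), all 3 on the microglia list. For Ctsd they were Cd9 (0.92), Npc2 (0.88) and Ctsz (0.88), and for Ctsz they were Ctsd (0.88), Arl2 (0.88) and S100a1 (0.87). For Ctsl they were Fxyd1, Tspo and Cd63 (each 0.92), for Ctsc Slc38a3 (0.87), Hspg2 (0.86) and Prlr (0.85), and for Ctsh Asap3 (0.84), Ctdsp1 (0.80) and Srebf1 (0.79).

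For Cst3 the most alike were Hrsp12 (0.91), Rps27a (0.91) and Tmbim6 (0.90), and for Ctsb Snx3 (0.73), Pgm2 (0.72) and Tmbim6 (0.72). For Lgmn they were Mrps10 (0.84), Cuta (0.79) and Nme2 (0.78), and for Ctsa Ubxn10 (0.77), Ctsd (0.76) and Tead3 (0.76). All values of a correlation come from the same 29 libraries and share their choroid plexus class and depth. When the choroid class was removed too, Ctss kept C1qb first (0.89) and Ctsd kept Cd9 first (0.87), while the first gene for Ctsl became Cdr2 (0.80) and the r of Prlr with Ctsc went from 0.85 to 0.70.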

How the data were processed

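PolyA RNA of hippocampal input and TRAP was sequenced. The values deposited by the authors are estimated counts in 1 table, marked raw per the file headers; 77.2% of nonzero values were not whole. Build mm10 and DESeq2 are named, without a role, per the submitters' processing notes; aligner, counter and strand handling are not given in the sources used here. Fractional counts divide reads between features, so overlapping genes and near-identical copies are uncertain. All 36 columns were used.

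Counts were rounded and tested with edgeR 4.0.16 in R 4.3.3 (filterByExpr, minimum count 10, TMM, glmQLFTest), with Benjamini-Hochberg adjustment over all genes tested and calls at adjusted p under 0.05. TRAP against input used the 14 late-induced libraries with sex as covariate; the other planned comparisons used the 29 inputs with group and sex, and the interaction of age and sex used the 22 early-induced inputs. SEs come from the F statistic. Log2 CPM had a prior count of 2. DESeq2 1.42.0 and limma 3.58.1 (voom) were alternatives. The labels number separate animals. Libraries of 1 animal were paired by its number: their deviations from group means correlated at 0.306 to 0.450 in all 7 pairs (different animals, median -0.09). In none of 153 pairs of libraries from the same group did the counts differ by sampling noise alone.

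On simulated data with 200 changed genes, a log2 change of 0.5 was recovered for 66% in the TRAP design on 15026 genes. It was recovered for 86% in old early against young and 75% in old late against old early, both on 15106 genes. For age by sex on 14953 genes the value was 45%. False calls were 8.18%, 2.27%, 4.02% and 2.4% of calls, in that order. The simulated libraries were drawn independently. In the data 8768 genes were called in TRAP against input and the libraries were paired by animal, so the TRAP rates may not hold there. In old early against young 3853 of 15106 genes were called, also far more than 200, so its rates may not hold either.

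The 10 genes and all lists (164 other symbols, 162 matched) were chosen with earlier results of these data known. Named were the 10 genes, every tested other cathepsin and inhibitor, the 3 largest calls of each other list, the 3 genes most like each of the 10, and the references Cx3cr1 and Csf1r; some genes that this rule names are not reported here, other genes in these lists are given as counts, and Cd74 in old early-induced animals was named after its value was seen. The choroid classes (cut at 1000 CPM), the sex comparisons within TRAP and TCACGTGA were added after the data were seen. Proteins were planned but not compared here.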

Additional observations from a re-analysis of the deposited data

How the results depend on the processing

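In TRAP against input all 10 genes were called under every alternative run, with 10 to 10 called when any 1 library or animal was left out. With the animal as replicate block all 10 were called too, among 9551 genes against 8768 without the block, and no call among the 10 changed. Scaling moved the split of all genes in that comparison from 4522 higher and 4246 lower (median log2 fold change -0.02) to 3303 and 6539 with upper quartile scaling (median -0.18) and 3629 and 5813 with library size only (median -0.13). In the low choroid class 5562 genes were called in TRAP.

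Counts are given below for the 10 genes, for the 10 together with the listed pathway genes, and for all genes. The cause of these differences was not tested. With the microglia score as covariate, early-induced age calls were 0, 0 and 16, late-induced ones 0, 0 and 1, induction calls over all genes 0 and sex calls in inputs 71. The sign changed under that covariate in early-induced animals for Ctsa (-0.015), Ctsc (-0.45), Ctsd (-0.095), Cst3 (-0.12), Ctso (-0.068), Serpinb6a (-0.0035), Serpina3n (-0.20), Sorl1 (0.059) and Grn (-0.090). In late-induced animals it changed for Ctsc (-0.24), Cst3 (-0.17), Ctso (-0.11), Serpinb6a (-0.038), Serpina3n (-0.36), Sort1 (0.038), Sorl1 (0.063), Gnptab (0.16), Cd74 (-0.70), H2-Aa (-0.50), H2-Ab1 (-1.003) and Grn (-0.070). It changed for Cst3 (-0.051) between induction ages and for Ctsa (0.019) between sexes in inputs. With females only, early-induced age calls were 13 with the listed genes and 1198 over all genes, late-induced ones 22 and 2787, and induction calls 2, 3 and 182. In the low choroid class, early-induced age calls were 16 with the listed genes and 1234 over all genes, late-induced ones 1875 over all genes, induction calls 3, 5 and 101 and sex calls in inputs 10. There Ctsc was -0.086, -0.13 and -0.043 in the 2 age comparisons and between induction ages, and Ctsl was -0.083 between sexes in inputs. In the high choroid class, calls over all genes were 2041, 2612, 0 and 12 for early-induced age, late-induced age, induction and sex in inputs, with Ctsl (-0.049) and Cst3 (-0.055) negative between induction ages.

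Induction calls were 2, 2 and 55 with DESeq2 and 1, 1 and 11 with limma voom. They were 4, 4 and 159 when young replicate 6 and old early-induced replicate 5 were both left out. Over all genes they were 0 with only the groups compared and 9 with the choroid class as covariate. Sex calls in inputs with DESeq2 were 2 with the listed genes and 64 over all genes, and 12 over all genes in early-induced inputs only. For age by sex, DESeq2 called 13 genes, and Ctsc was -0.015 with limma voom. For sex by fraction, calls were 6, 14 and 162 with no filter, 1 with the listed genes and 43 over all genes with DESeq2, and over all genes 5 with limma voom and 0 with library size only. Cst3 was 0.028, 0.021 and 0.015 there with upper quartile scaling, library size only and no filter. Between sexes in TRAP, calls were 3, 11 and 353 with DESeq2, 1 with the listed genes and 22 over all genes with no filter, and 5 over all genes with limma voom.

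With 1 library or animal left out, induction calls ranged from 0 to 4, 0 to 4 and 0 to 162. Sex calls in inputs ranged from 0 to 2 with the listed genes and 17 to 32 over all genes. Age by sex calls ranged from 0 to 2 with the listed genes and 0 to 453 over all genes, the highest without old early-induced replicate 6. Sex by fraction calls ranged from 0 to 3, 0 to 6 and 0 to 95. Age by sex values ranged from -0.094 to 0.17 for Ctsc, -0.16 to 0.023 for Ctsh and -0.066 to 0.11 for Ctss.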
